A study of Mus musculus with 16 samples.

Results

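Alk, its relative and the receptors and ligands around midkine and pleiotrophin make up 6 of the 24411 genes in the expression tables. They are the receptor tyrosine kinase genes Alk and Ltk, the genes of the growth factors midkine (Mdk) and pleiotrophin (Ptn), and Ptprz1 and Sdc3, which encode further receptors for these growth factors. They were chosen by name, as a receptor and its family with the ligands and co-receptors, and all 6 passed the filter on low counts that left 16665 genes for testing. The RNA-seq libraries came from celiac ganglia and tumors of mice bred to ask how loss of 1 allele of the co-repressor gene Runx1t1 affects neuroblastoma driven by MYCN, a childhood tumor of the sympathetic nervous system. Th-MYCN mice (129/SvJ) carry human MYCN under the tyrosine hydroxylase promoter, which is active in cells of the neural crest. The Runx1t1 knockout, an insertional inactivation, came from a line on another strain background and was crossed with the Th-MYCN mice. The authors do not state the strain background of the mice in each group.

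The 16 libraries fell into 5 groups. Transgene-free ganglia with wild-type Runx1t1 (4 libraries) and transgene-free Runx1t1 het ganglia, whose label stands for 1 functional allele (3 libraries), were the controls. Ganglia of Th-MYCN homozygous mice were either wild-type for Runx1t1 (3 libraries) or labelled Runx1t1 het (2 libraries). All ganglia were from mice 2 weeks old. The 4 tumors, also wild-type for Runx1t1, arose in Th-MYCN homozygous mice, and their age is not in the labels, so that tumor, tissue and age cannot be told apart in any comparison with ganglia. The labels do not say which libraries came from separate animals, and p-values therefore measure only the spread between these libraries.

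Alk is a receptor tyrosine kinase of the developing nervous system, and activating mutations or amplification of the human gene occur in neuroblastoma. Ltk is its nearest relative, and the small secreted proteins Alkal1 and Alkal2 activate both receptors. Midkine and pleiotrophin form a family of heparin-binding growth factors that have also been described as Alk ligands, although direct binding has been disputed. Both bind the chondroitin sulfate chains of the receptor phosphatase Ptprz1, which is abundant in glia, and the heparan sulfate chains of syndecan-3, the product of Sdc3, which is abundant on axons.

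The genes lie at separate loci of GRCm38. Alk occupied chr17:71868972-72604627 on the minus strand, and its longest transcript has 29 exons. Ltk lay at chr2:119751320-119760431 on the minus strand with 20 exons. Mdk was a compact gene of 5 exons on the same strand of that chromosome, at chr2:91929805-91932297. Ptn had 4 exons at chr6:36714929-36810220 on the minus strand, and Ptprz1 had 30 exons at chr6:22875502-23052916 on the plus strand. Sdc3 had 5 exons at chr4:130792537-130826319 on the plus strand, where 2 antisense genes, Gm12970 and Gm26716, overlap its exons. Neither is listed in the expression tables and the strand setting of the counting was not given, so reads of these antisense genes may be included in the Sdc3 values.

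The 250 bases before the start site are shown for Ptprz1 and Sdc3. In the fit to all libraries these genes changed most and least between transgene-free wild-type ganglia and tumors. They are written from the RefSeq annotation of GRCm38.p6, 5′ to 3′ on the plus strand, with each CG dinucleotide in capitals. The Ptprz1 window is chr6:22875252-22875501 and the Sdc3 window is chr4:130792287-130792536.
Ptprz1: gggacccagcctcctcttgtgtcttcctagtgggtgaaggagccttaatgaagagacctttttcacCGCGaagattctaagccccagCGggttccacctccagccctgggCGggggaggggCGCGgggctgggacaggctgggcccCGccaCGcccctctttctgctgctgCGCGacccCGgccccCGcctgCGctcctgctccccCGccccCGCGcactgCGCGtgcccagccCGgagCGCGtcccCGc
Sdc3: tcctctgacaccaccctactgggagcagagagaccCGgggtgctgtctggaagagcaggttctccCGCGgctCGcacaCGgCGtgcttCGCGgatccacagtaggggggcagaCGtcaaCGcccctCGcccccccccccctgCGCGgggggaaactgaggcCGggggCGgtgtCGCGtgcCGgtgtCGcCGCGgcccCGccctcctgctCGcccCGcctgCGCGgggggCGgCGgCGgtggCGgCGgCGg
The Ptprz1 window held 22 CG dinucleotides and 71.6% G or C, and the Sdc3 window held 32 and 76.4%. Over 32851 RefSeq windows of this length the median was 6 CG dinucleotides, 14.8% held at least as many as Ptprz1 and 4.58% at least as many as Sdc3. The E-box CACGTG, to which MYC family proteins bind, and the looser form CANNTG, which includes it, were searched on both strands in the windows of the 5 members that RefSeq matched (Alk, Ltk, Ptn, Ptprz1 and Sdc3). These letters occurred in none of the 5 windows. Among all windows 6.02% held CACGTG and 66.2% held CANNTG.

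Depth ranged from 10692299 to 38618757 counts per library, and 6 of the 12 ganglion libraries were under 20000000 counts whereas every tumor was over it. Runx1t1 itself was at 8.48 to 13.1 CPM (counts scaled by library size) in transgene-free wild-type ganglia and 13.1 to 18.2 CPM in transgene-free Runx1t1 het ganglia, at 23.4 to 243 CPM in Th-MYCN wild-type ganglia, 25.3 and 49.9 CPM in Th-MYCN ganglia labelled het and 123 to 227 CPM in tumors, so that the range of Runx1t1 RNA in transgene-free het ganglia did not lie below that in the wild-type ones. The tables list mouse genes and have no row for the human transgene. Each of 16 sympathetic neuron markers had more than 3 counts in at least 1 library of every group. Their summed level in TPM (which also accounts for transcript length) ran from 7015 to 19970 in ganglia and from 3580 to 8589 in tumors. Replicate 2 of the transgene-free wild-type ganglia stood apart, with 740 TPM of 8 lymphocyte markers against at most 25.0 TPM elsewhere, and with the lowest neuron marker sum among the ganglia.

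Alk was low in transgene-free ganglia and high in tumors. It measured 22.2, 3.21, 5.82 and 6.62 CPM in replicates 1 to 4 of the transgene-free wild-type ganglia, and 13.6, 16.2 and 21.7 CPM in the transgene-free het ganglia. The tumors measured 259, 93.5, 116 and 136 CPM, all above every transgene-free ganglion. Tumors exceeded transgene-free wild-type ganglia by 4.01 on the log2 scale (SE 0.717, 95% interval 2.47 to 5.55, 16.1-fold, edgeR quasi-likelihood test, adjusted p = 0.000341). Leaving out replicate 1 of the transgene-free wild-type ganglia moved it to 4.84. In this comparison 27% of all tested genes were called higher in tumors and 30.7% lower, so that a call in itself was common, and the median gene moved by -0.112. How many of all tested genes lay fully apart between tumors and transgene-free ganglia was not counted, so lack of overlap is given as description only. In tissue such as this, more cells with a transcript and more of it per cell cannot be told apart.

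Ltk moved the other way. Its levels were 25.8, 4.16, 9.84 and 8.13 CPM in transgene-free wild-type ganglia and 13.7, 22.5 and 28.8 CPM in transgene-free het ganglia. In tumors it was at 2.52, 0.0565, 0.250 and 0.140 CPM, and the last 3 of these values rest on 2 to 7 counts. The difference between tumors and transgene-free wild-type ganglia was -4.04 (SE 0.993, 95% interval -6.17 to -1.91, 16.4-fold lower in tumors, edgeR adjusted p = 0.00338). Tumor replicate 1 held most of the remaining Ltk RNA: without it the difference was -6.32, and it was -3.34 when replicate 1 of the transgene-free wild-type ganglia was left out, both still past the threshold.

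Per unit of transcript length, which allows levels of different genes to be compared, the receptor pair changed places. Alk made up 23.9% ± 3.20 (SD, n = 4) of the summed TPM of Alk and Ltk in transgene-free wild-type ganglia and 27.6% ± 3.96 (SD, n = 3) in transgene-free het ganglia. In tumors the Alk share was 99.1% ± 1.17 (SD, n = 4), and the lowest tumor was at 97.3%. Alk rose from a mean of 3.93 TPM to 46.6 TPM and Ltk fell from 11.5 TPM to 0.648 TPM.

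**Figure D1:**
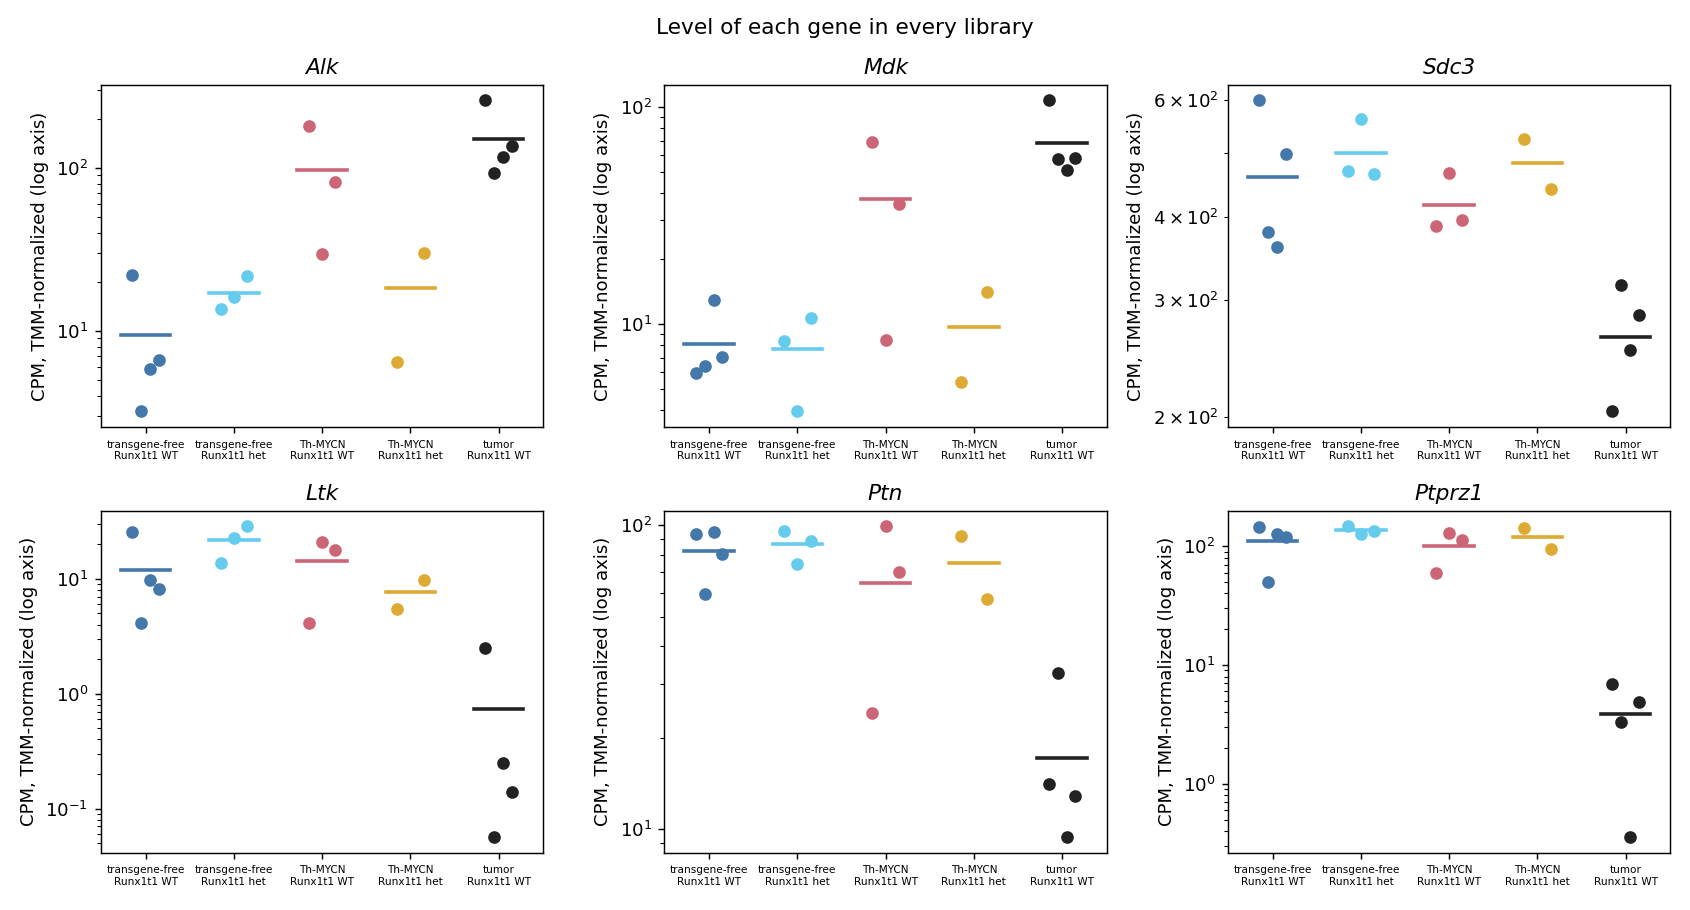
Level of the 6 genes in every library, as CPM normalized by TMM on logarithmic axes that differ between genes. Points are libraries and bars are group means. Alk and Mdk in tumors lie above all transgene-free ganglia, and Ltk, Ptn, Ptprz1 and Sdc3 in tumors lie below them. The share of all tested genes that lie apart in this way was not counted.

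Midkine and pleiotrophin RNA also moved in opposite directions. Mdk was at 5.92, 6.42, 12.9 and 7.03 CPM in transgene-free wild-type ganglia and 8.33, 3.95 and 10.7 CPM in transgene-free het ganglia. The tumors held 107, 57.8, 51.1 and 58.1 CPM, again without overlap. Mdk was higher in tumors than in transgene-free wild-type ganglia by 3.08 on the log2 scale (SE 0.569, 8.46-fold, edgeR adjusted p = 0.000433).

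Ptn, the predominant ligand transcript of the control ganglia, fell. It was at 93.6, 59.4, 95.1 and 80.7 CPM in transgene-free wild-type ganglia and 96.1, 74.4 and 89.0 CPM in transgene-free het ganglia. Tumors held 14.1, 32.5, 9.42 and 12.9 CPM, each below the lowest transgene-free ganglion. The difference was -2.25 (SE 0.427, 4.77-fold lower, edgeR adjusted p = 0.000523).

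As a share of the summed TPM of both ligands, Mdk was 21.7% ± 5.07 (SD, n = 4) in transgene-free wild-type ganglia, 19.6% ± 5.89 (SD, n = 3) in transgene-free het ganglia and 91.5% ± 5.28 (SD, n = 4) in tumors. The tumor with the most Ptn, replicate 2, had the lowest Mdk share, 83.8%. With a mean of 190 TPM in tumors Mdk ranked 678 among the 24411 genes, against rank 5834 in transgene-free wild-type ganglia. Ptn went from rank 1599 to rank 6948.

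**Figure D2:**
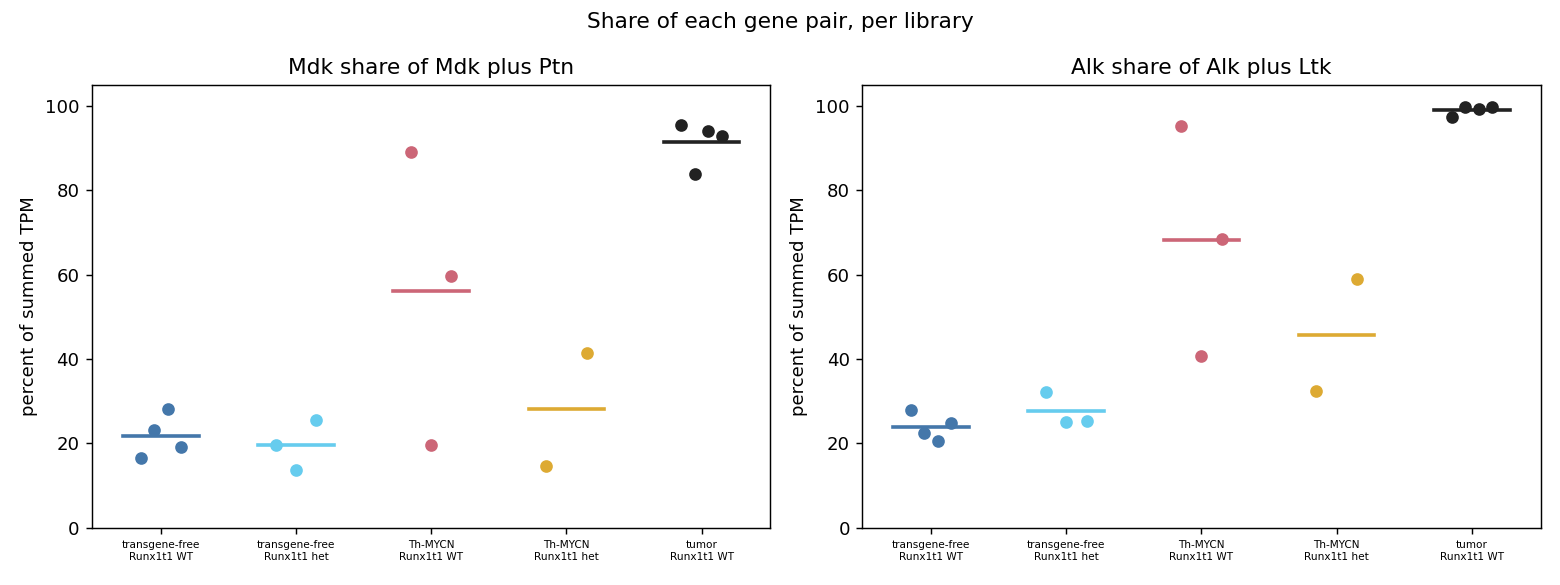
Mdk as a percent of the summed TPM of Mdk and Ptn, and Alk as a percent of the summed TPM of Alk and Ltk, for each library (points) with group means (bars). Both shares were above 80% in all 4 tumors and below 35% in all 7 transgene-free ganglia, with the Th-MYCN ganglia spread between 14.7% and 95.3%.

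The receptors that bind both ligands through sugar chains fell in tumors as well. Ptprz1 was at 144, 50.0, 128 and 119 CPM in transgene-free wild-type ganglia, and the het ganglia lay between 125 and 147 CPM. In tumors it was at 6.95, 3.33, 0.357 and 4.89 CPM. With all libraries this was the steepest change among the 6 genes, -4.83 on the log2 scale (SE 0.634, 28.4-fold lower, edgeR adjusted p = 3.48e-05). Without tumor replicate 1 the Ltk difference, -6.32, was steeper than that of Ptprz1 in any refit without 1 library (-5.25 to -4.45).

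Sdc3 changed least. Transgene-free wild-type ganglia measured 599, 379, 361 and 498 CPM and transgene-free het ganglia 469, 562 and 465 CPM. The tumors, at 204, 316, 253 and 285 CPM, were all lower, by 0.80 on the log2 scale (difference -0.80, SE 0.183, 1.74-fold, edgeR adjusted p = 0.00214). By group mean it was the highest of the 6 genes per length in each group of ganglia, with 202 to 251 TPM. In tumors its mean of 97.7 TPM was second to that of Mdk. All 6 calls between tumors and transgene-free wild-type ganglia held when any 1 of the 16 libraries was left out.

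Summed markers of other cell types moved with these groups. The summed TPM of 14 satellite glia and Schwann cell markers was 4759 to 8517 in transgene-free wild-type ganglia and 1156, 2599, 4100 and 1007 in tumor replicates 1 to 4, and each of the 14 markers had more than 3 counts in some library of every group. Ptprz1 was at 1.55, 0.73, 0.08 and 1.08 TPM in tumor replicates 1 to 4. The summed level of 10 cell cycle markers was 71.0 to 99.2 TPM in the transgene-free ganglia other than replicate 2 of the wild-type group, which had 396 TPM, and 1697 to 2143 TPM in tumors. The 8 fibroblast markers summed to 1903 to 7958 TPM in transgene-free wild-type ganglia and 234 to 573 TPM in tumors, which did not overlap. The 8 endothelial markers summed to 57.0 to 571 TPM and 35.8 to 88.9 TPM, and the 8 myeloid markers to 64.6 to 160 TPM, with 2140 TPM in replicate 2, and 324 to 1015 TPM. In the same order of groups, the 6 adrenal cortex markers summed to 6.48 to 100 TPM and 3.05 to 5.61 TPM. The 5 chromaffin cell markers summed to 345 to 1191 TPM and 987 to 1887 TPM. The part of these cell populations in the differences of the 6 genes and of the other pathway genes was not tested.

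**Figure D3:**
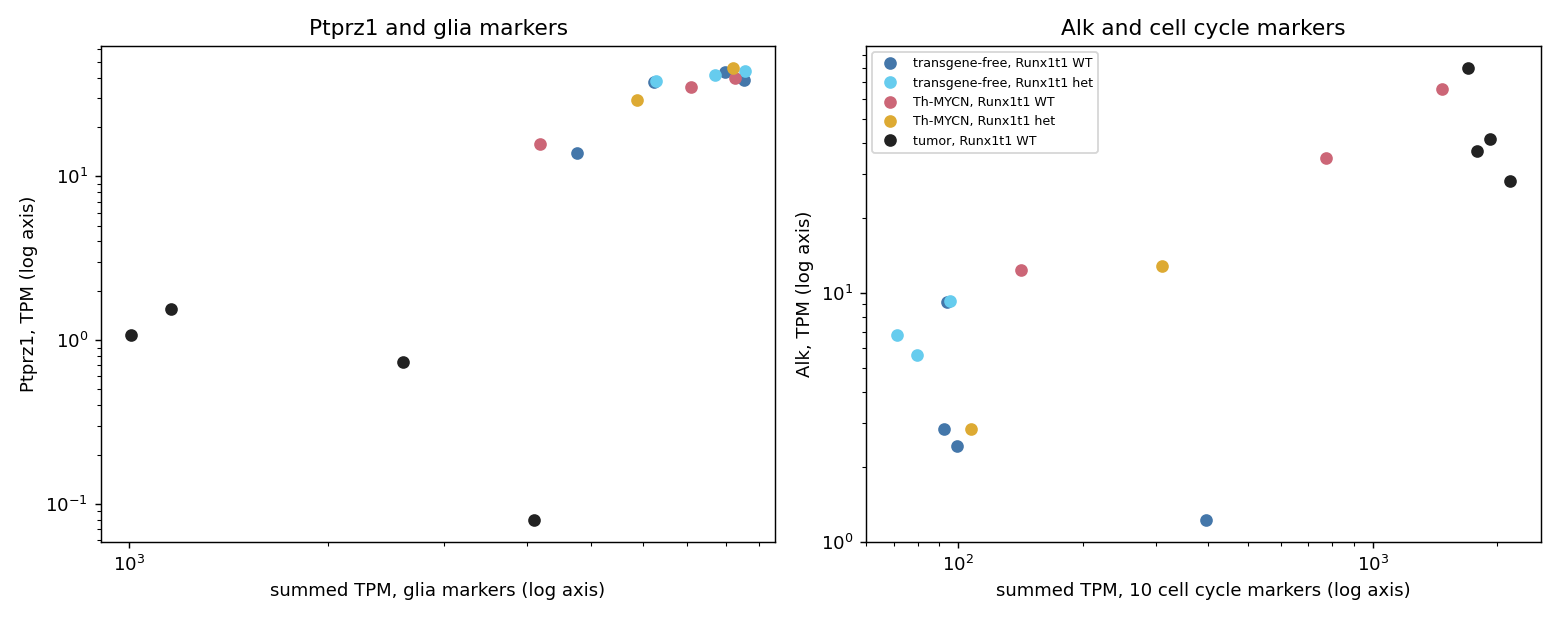
Ptprz1 against the summed level of 14 glia markers, and Alk against the summed level of 10 cell cycle markers, in TPM on logarithmic axes; each point is 1 of the 16 libraries. Tumors are lowest for Ptprz1, and the Th-MYCN ganglia with most cell cycle RNA, at 1467 and 772 TPM, are those with most Alk.

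Within ganglia, the question was whether the MYCN transgene alone was accompanied by a change of these genes at 2 weeks. Alk was the only one of the 6 that passed the threshold. Th-MYCN wild-type ganglia held 180, 29.6 and 82.1 CPM in replicates 1, 3 and 4, all above the 7 transgene-free ganglia. The difference from transgene-free wild-type ganglia was 3.37 (SE 0.72, 95% interval 1.83 to 4.92, 10.4-fold, edgeR adjusted p = 0.0473), in a comparison in which 0.834% of the tested genes were called higher and 0.102% lower. Without 1 library the number of genes called in this comparison ranged from 0 to 1811.

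This call of Alk sat at the threshold. Its adjusted p lay between 0.0052 and 0.321 over the refits that left out 1 library, of which 4 of 16 kept the call, while the difference stayed between 2.58 and 4.20. It was 2.58 (adjusted p = 0.321) without replicate 1 of the Th-MYCN wild-type ganglia and 4.20 (adjusted p = 0.0812) without replicate 1 of the transgene-free wild-type ganglia. With the replicate number as a block, the edgeR adjusted p was 0.0736.

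Mdk in the same 3 Th-MYCN ganglia was 68.9, 8.44 and 35.6 CPM. Replicates 1 and 4 were above every transgene-free ganglion and replicate 3 was among them. The difference of 2.21 (SE 0.576, 95% interval 0.97 to 3.45) missed the threshold with edgeR (adjusted p = 0.0735) and passed it with DESeq2 (adjusted p = 0.00434). Of the 16 refits without 1 library 1 passed, that without replicate 3 of the Th-MYCN wild-type ganglia (difference 2.69, adjusted p = 0.00413), and of the 9 alternatives DESeq2 was the 1 that passed. Without replicate 1 the difference was 1.44 (edgeR adjusted p = 0.55).

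The other 4 genes did not pass. Ltk was at 4.13, 20.8 and 17.7 CPM (difference 0.26, edgeR adjusted p = 0.915) and Ptn at 24.2, 99.3 and 70.2 CPM (difference -0.35, adjusted p = 0.707). Ptprz1 was at 59.2, 130 and 113 CPM (difference -0.13, edgeR adjusted p = 0.935) and Sdc3 at 388, 466 and 397 CPM (difference -0.14, adjusted p = 0.734).

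The 3 Th-MYCN wild-type ganglia were unlike each other. Replicate 1 had the highest Alk and Mdk and the lowest Ltk, Ptn, Ptprz1 and Sdc3 of the 3, and replicate 3 had the reverse. Mdk made up 89.2%, 19.6% and 59.7% of the ligand TPM in replicates 1, 3 and 4, and Alk 95.3%, 40.6% and 68.6% of the receptor TPM. Cell cycle markers summed to 1467, 142 and 772 TPM and glia markers to 4187, 8278 and 7090 TPM in the same order. Replicate 1 held fewer than 20000000 counts and the others more, and both Th-MYCN het ganglia held fewer.

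Between Th-MYCN ganglia labelled Runx1t1 het and transgene-free het ganglia, 2 libraries against 3, none of the 6 genes passed the threshold, and 0% of all tested genes were called by edgeR (242 had an unadjusted p under 0.05, and DESeq2 called 14). Alk was at 6.48 and 30.2 CPM in replicates 1 and 2, on either side of the transgene-free het ganglia, a difference of 0.09 with a 95% interval of -1.68 to 1.86. Mdk was at 5.42 and 14.0 CPM, a difference of 0.34 with an interval of -1.13 to 1.82. Ltk, at 5.49 and 9.88 CPM, was below all 3 transgene-free het ganglia (difference -1.50, interval -4.01 to 1.02, edgeR adjusted p = 1). Ptn at 92.5 and 57.3 CPM, Ptprz1 at 143 and 94.5 CPM and Sdc3 at 525 and 441 CPM had differences of -0.21, -0.19 and -0.05.

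When both Runx1t1 genotypes were pooled with equal weight, the transgene effect was 1.73 for Alk (edgeR adjusted p = 0.262) and 1.28 for Mdk (adjusted p = 0.336), and 0.042% of genes were called. The 7 called genes included none of the 6. Without replicate 3 of the Th-MYCN wild-type ganglia both passed, at 1.95 for Alk (edgeR adjusted p = 0.0496) and 1.51 for Mdk (adjusted p = 0.0304). Without 1 library the effect ranged from 0.98 to 2.14 for Alk and from 0.86 to 1.56 for Mdk, the lower value of each without replicate 2 of the Th-MYCN het ganglia.

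**Figure D4:**
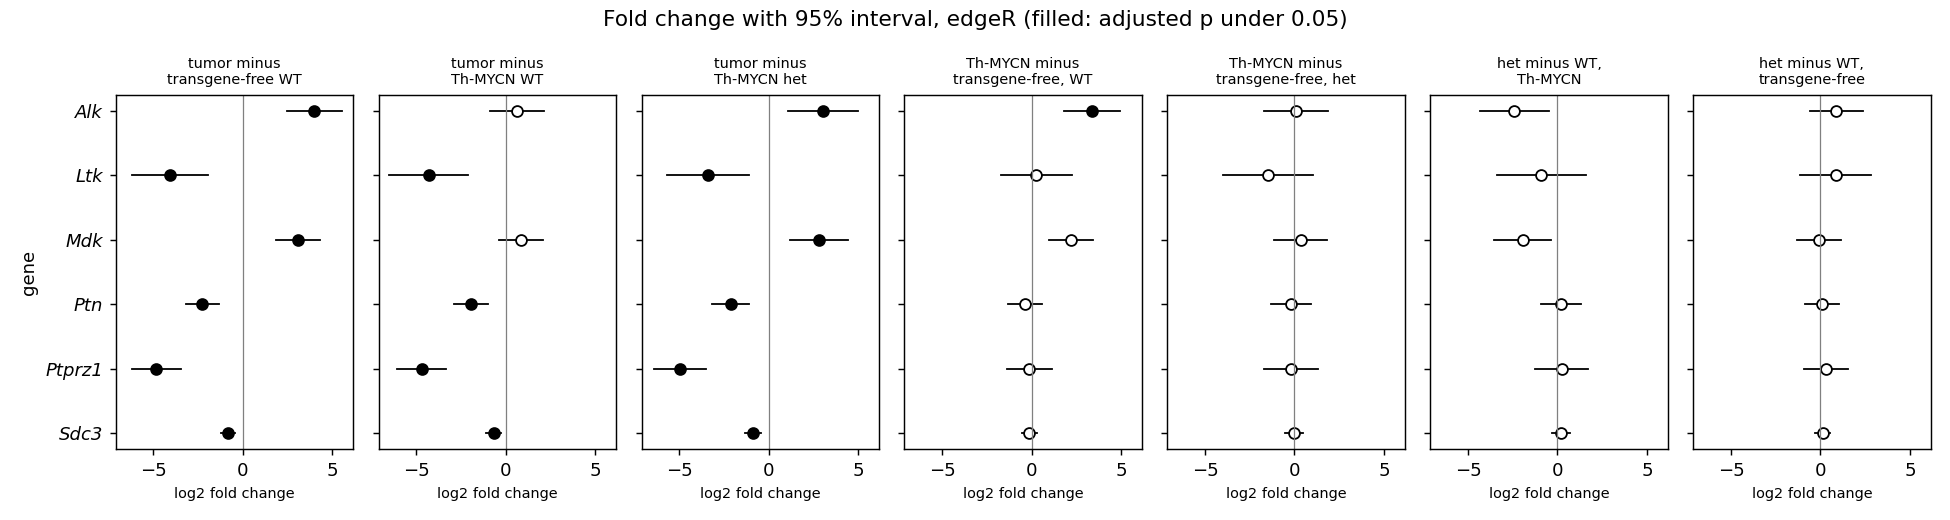
Log2 fold change of each gene with its 95% interval in 7 comparisons; filled points have an edgeR adjusted p under 0.05. Calls are concentrated in the 3 comparisons with tumors, and Alk is the only filled point among the 4 comparisons between ganglia.

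Loss of 1 Runx1t1 allele was compared within each transgene genotype. Between Th-MYCN het and Th-MYCN wild-type ganglia, Alk differed by -2.41 (95% interval -4.35 to -0.47) and Mdk by -1.95 (interval -3.53 to -0.38). Both unadjusted p-values were under 0.05 (0.0186 and 0.0189), but neither gene passed after adjustment (edgeR adjusted p = 0.348 for both), and 0.012% of genes did. Without 1 library the difference ranged from -3.91 to -1.61 for Alk, without replicate 2 of the het ganglia and without replicate 1 of the wild-type ganglia. The same 2 refits gave the range of -2.79 to -1.19 for Mdk. For both genes replicate 2 of the het ganglia overlapped replicate 3 of the wild-type ganglia. The differences of Ltk, Ptn, Ptprz1 and Sdc3 were -0.89, 0.21, 0.23 and 0.21.

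Among transgene-free ganglia the differences between het and wild-type were 0.87 for Alk, 0.86 for Ltk, -0.08 for Mdk, 0.07 for Ptn, 0.30 for Ptprz1 and 0.12 for Sdc3, all with an edgeR adjusted p of at least 0.993. Without replicate 1 of the wild-type ganglia the differences of Alk and Ltk were 1.71 and 1.55, and without replicate 2 they were 0.60 and 0.58. In that comparison 0% of tested genes were called (687 had an unadjusted p under 0.05, and DESeq2 called 5). The interaction, which asks whether the Runx1t1 difference depended on the transgene, was -3.28 for Alk (interval -5.70 to -0.86) and -1.87 for Mdk (interval -3.83 to 0.09), each with an edgeR adjusted p of 0.845, and here too 0% of genes were called (937 with an unadjusted p under 0.05, 31 called by DESeq2). The interval of Alk, which is not adjusted over genes, lay below 0. Without 1 library the interaction ranged from -4.78 to -2.49 for Alk and from -2.71 to -1.10 for Mdk, at the same libraries of the Th-MYCN groups.

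Tumors were also set against the Th-MYCN ganglia, with which they share the transgene. Against Th-MYCN wild-type ganglia, 14% of tested genes were called higher in tumors and 20.5% lower. Alk (difference 0.64, interval -0.85 to 2.12, edgeR adjusted p = 0.502) and Mdk (0.87, interval -0.37 to 2.11, adjusted p = 0.261) were not among them, with 0.20 to 1.43 and 0.39 to 1.64 without 1 library, and for both the highest of these ganglia, replicate 1, lay within the range of the tumors. Ltk (-4.30, edgeR adjusted p = 0.00584), Ptn (-1.91, adjusted p = 0.00482) and Ptprz1 (-4.70, adjusted p = 0.000149) were lower in tumors. For Ptn the groups overlapped, as replicate 1 of the ganglia, at 24.2 CPM, was under tumor replicate 2. Sdc3 was lower by 0.66 (difference -0.66, edgeR adjusted p = 0.019), a call that was lost with the replicate block (adjusted p = 0.0545) and without replicate 3 of the ganglia (adjusted p = 0.0836).

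Against Th-MYCN ganglia labelled Runx1t1 het, 22% of genes were higher in tumors and 23.5% lower. Alk was higher by 3.04 (edgeR adjusted p = 0.0146) and Mdk by 2.82 (adjusted p = 0.00734). Ltk differed by -3.40 (edgeR adjusted p = 0.0183), Ptn by -2.12 (adjusted p = 0.00279), Ptprz1 by -4.93 (adjusted p = 8.32e-05) and Sdc3 by -0.87 (adjusted p = 0.00507). Leaving out 1 het library leaves 1 in that group, with the spread taken from the other groups, so p-values of these refits are not given. Without replicate 1 of the het ganglia the differences were 2.32 for Alk, 2.29 for Mdk, -1.72 for Ptn and -0.73 for Sdc3, and these calls were lost. Without replicate 2 of the het ganglia the difference was -2.91 for Ltk, whose call was lost. Alk and Mdk, at 4.54 and 3.66 in that refit, kept theirs. The Ltk call was also lost when the fit held only both groups (edgeR adjusted p = 0.0807). Without tumor replicate 1 the Ltk difference was -5.68, and it was -6.57 against the Th-MYCN wild-type ganglia. The call of Ptprz1 held without any 1 library.

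The comparisons with tumors share the 4 tumor libraries, and those with a transgene-free group share its ganglia, so that they are not independent of each other.

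The genes of the dedicated Alk ligands were hardly detected. Fam150a, the name of Alkal1 in the tables, had 0 counts in all 16 libraries, which allows up to 0.221 CPM in the shallowest group (3 counts). Fam150b, the name of Alkal2, had at most 19.3 counts in any library and at most 1.49 TPM. Its level was 0.518 TPM ± 0.545 (SD, n = 4) in transgene-free wild-type ganglia and 0.108 TPM ± 0.189 (SD, n = 4) in tumors, and the difference of -1.93 did not pass (edgeR adjusted p = 0.221). It rested on single libraries, with -4.27 (adjusted p = 0.0249) without tumor replicate 1 and -0.91 (adjusted p = 0.622) without replicate 3 of the transgene-free wild-type ganglia.

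The 3 other syndecans, which carry heparan sulfate chains as Sdc3 does, moved separately. Sdc1 rose in tumors by 2.24 in the edgeR fit to counts (SE 0.457, edgeR adjusted p = 0.000906). TPM is scaled differently, so that its fold is not the same. Sdc1 was at 11.0 TPM ± 5.67 (SD, n = 4) in transgene-free wild-type ganglia and 39.0 TPM ± 6.78 (SD, n = 4) in tumors. Sdc2 fell, with a difference of -2.63 (SE 0.416, edgeR adjusted p = 0.000133), which was -3.37 without tumor replicate 3. In the same order of groups Sdc2 was at 40.1 TPM ± 11.3 and 4.89 TPM ± 4.09. Sdc4 had a difference of -1.23 that did not pass (edgeR adjusted p = 0.0628), but did without tumor replicate 3 (-2.08, adjusted p = 0.00178) and with the replicate number as a block (-1.59, adjusted p = 0.00916). Sdc3 remained the most abundant syndecan, with 69.6% ± 9.58 (SD, n = 4) of the summed syndecan TPM in transgene-free wild-type ganglia and 63.0% ± 7.58 (SD, n = 4) in tumors, while the Sdc1 share was 3.52% ± 1.96 and 25.3% ± 3.91.

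**Figure D5:**
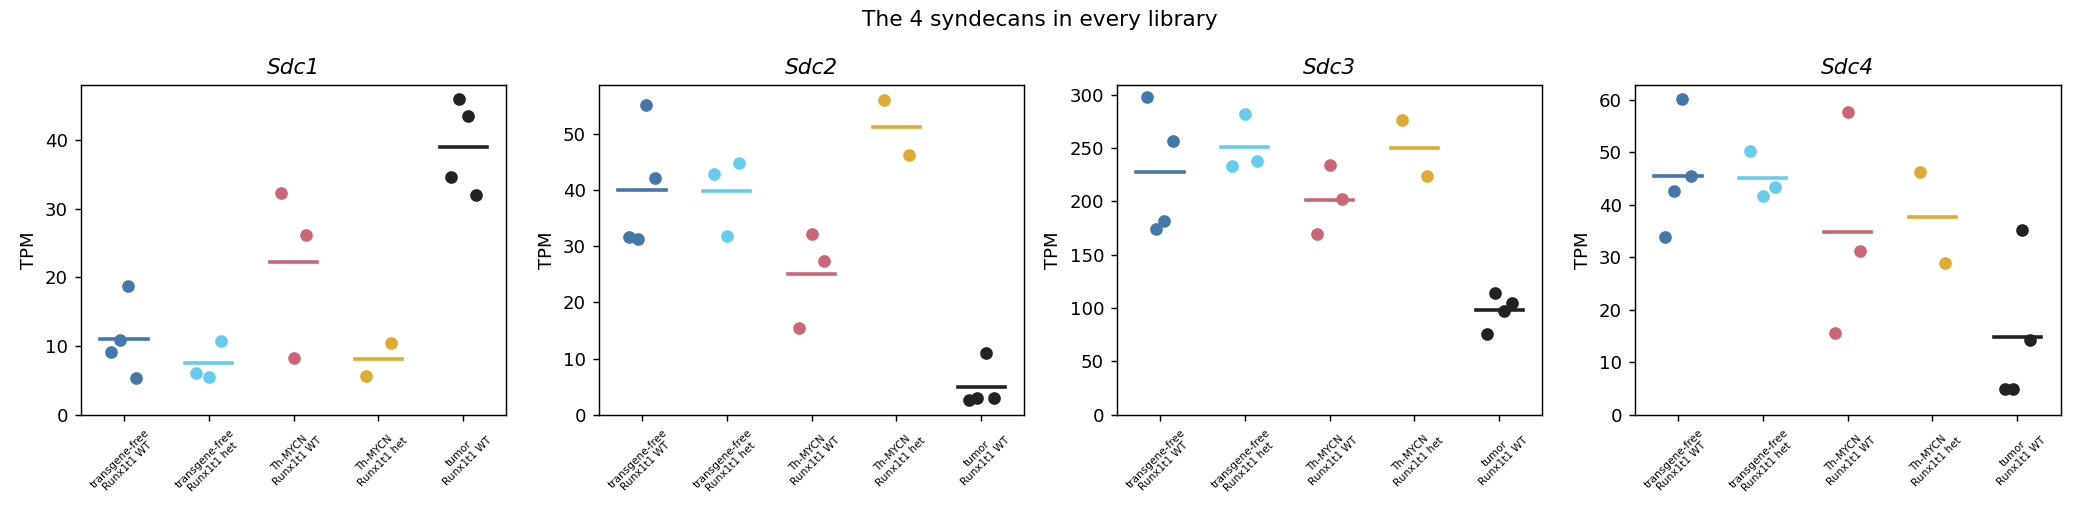
The 4 syndecan genes in every library, in TPM on linear axes from 0 that differ between genes; points are libraries and bars are group means. In tumors Sdc1 lies above the transgene-free ganglia and Sdc2 and Sdc3 lie below them, a separation whose share over all tested genes was not counted.

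A list of 24 genes, syndecans included, held surface and matrix proteins and nucleolin that bind midkine or pleiotrophin, or relatives of such proteins. Of these 24 genes, 6 rose and 13 fell in tumors against transgene-free wild-type ganglia (median difference -1.37, against -0.112 over all genes). The 27% of all tested genes that were higher and the 30.7% that were lower in this comparison are the shares against which this and the following counts stand. Without replicate 2 of the transgene-free wild-type ganglia, the library with lymphocyte markers, the counts were 6 and 13. Without replicate 3 of that group they were 6 and 11. With the replicate number as a block they were 6 and 15, with Sdc4 and Vcan (difference -1.47, edgeR adjusted p = 0.036) added to those that fell. Gpc2, a glypican of neuronal precursors, rose by 2.32 (edgeR adjusted p = 0.00136), and Ncl, the gene of nucleolin, by 2.30 (adjusted p = 1.09e-05). The chondroitin sulfate proteoglycan gene Ncan rose by 2.08 (edgeR adjusted p = 0.000797). Itga6, an integrin subunit that binds laminin, had a difference of -3.64 (edgeR adjusted p = 1.12e-05) and the proteoglycan gene Cspg5 one of -3.35 (adjusted p = 0.000105), which was -4.17 without tumor replicate 1. Bcan, the gene of brevican, had at most 1 count in any tumor and was at least 62.4-fold lower against a floor of 3 counts per library.

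Of 7 partners and relatives of Ptprz1, 6 fell and 1 rose (median difference -2.65). The matrix protein genes Tnc and Tnr had differences of -3.72 and -2.74, and Cntn1, a contactin that binds Ptprz1, one of -2.90 (edgeR adjusted p = 2.28e-05, 0.000336 and 1.42e-05). Nfasc, the gene of the cell adhesion protein neurofascin, rose by 0.91 (edgeR adjusted p = 0.014). Ptprg, the receptor phosphatase closest to Ptprz1, had a difference of -2.05 (edgeR adjusted p = 3.39e-05), less steep than that of Ptprz1, though the difference between both genes was not tested.

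The enzymes that build and modify the heparan and chondroitin sulfate chains numbered 31, of which 1 rose and 13 fell (median difference -0.76), beside 27% and 30.7% of all tested genes. Without replicate 2 of the transgene-free wild-type ganglia 2 rose and 13 fell, with a median of -0.46. The 1 that rose was Hs6st2, a heparan sulfate 6-O-sulfotransferase, with a rise of 3.47 (edgeR adjusted p = 0.0165) and groups that overlapped, and 4.53 without that library. The chondroitin 6-O-sulfotransferase gene Chst3 had a difference of -5.10 (edgeR adjusted p = 4.26e-05). The transgene-free wild-type ganglia had a median of 20.5 CPM and a highest value of 116 CPM for Chst3, in replicate 2, and without that library the difference was -3.88 (edgeR adjusted p = 6.55e-06). Ndst3 had one of -4.41 (edgeR adjusted p = 0.000204) and Hs3st2 one of -3.89 (adjusted p = 0.00301). Without tumor replicate 1 these were -5.07 and -5.72.

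Of 27 genes of adaptors, kinases and other proteins of Alk signalling, 7 rose and 10 fell (median difference -0.07), shares close to the 27% and 30.7% over all tested genes. Without replicate 2 of the transgene-free wild-type ganglia 9 rose and 10 fell. Without replicate 3 of that group 5 rose and 9 fell, and with the replicate number as a block 8 rose and 9 fell. Shc3, a neuronal adaptor of receptor tyrosine kinases, had a difference of -7.87 (edgeR adjusted p = 8.24e-07), and its relative Shc1 one of -2.51 (adjusted p = 2.2e-06). The Jak3 difference of -2.58 (edgeR adjusted p = 0.0234) rested on 1 library. Jak3, a kinase of lymphocytes, was at 1.76 to 83.5 CPM (median 9.68) in transgene-free wild-type ganglia and at 2.76 to 5.59 CPM in tumors, and without replicate 2 of the former, which held the lymphocyte markers, the difference was -0.68 (adjusted p = 0.354). It was also not called without tumor replicate 1 (adjusted p = 0.058) or with the replicate block (-1.71, adjusted p = 0.115). Pik3r1, a regulatory subunit of phosphoinositide 3-kinase, rose by 1.56 (edgeR adjusted p = 0.000585), the kinase gene Mapk7 by 1.10 (adjusted p = 1e-04) and Rapgef1, an exchange factor for Rap1, by 0.97 (adjusted p = 0.00153).

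Of 15 genes known to respond to Alk or to MAP kinase signalling, 12 fell in tumors against transgene-free wild-type ganglia and 0 rose (median difference -2.14), with the same counts without replicate 2 of the transgene-free wild-type ganglia. Spry4, a feedback inhibitor of receptor tyrosine kinases, had a difference of -4.62 (edgeR adjusted p = 3.87e-07), the transcription factor gene Etv4 one of -4.22 (adjusted p = 0.000697) and Ret, itself a receptor tyrosine kinase, one of -3.09 (adjusted p = 0.000537). The other 3 were Dusp4 (difference -0.99, edgeR adjusted p = 0.071), Etv1 (-0.71, adjusted p = 0.53) and Maff (-0.02, adjusted p = 0.961), of which Etv1 was at -3.13 (adjusted p = 0.00173) without tumor replicate 2. Dusp4 passed in 3 of the 16 refits without 1 library, without replicate 1 of the transgene-free wild-type ganglia (-1.22, edgeR adjusted p = 0.0265), replicate 3 of the Th-MYCN wild-type ganglia (-0.99, adjusted p = 0.0316) or tumor replicate 4 (-1.35, adjusted p = 0.0264). Against Th-MYCN wild-type ganglia 9 of the 15 fell, beside 20.5% of all tested genes, and against Th-MYCN het ganglia 12, beside 23.5%, with 0 higher in both. In the comparisons between ganglia no gene of these lists passed the threshold with edgeR, in either direction.

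Across all 16 libraries, the genes whose log2(TPM + 1) followed each of the 6 most closely, among 14747 genes with a mean of at least 1 TPM, were Tlx3 for Alk (Pearson r = 0.982), Kcnh7 for Ltk (0.976), Cand2 for Mdk (0.972), Kcnj10 for Ptn (0.982), Prss35 for Ptprz1 (0.995) and Gch1 for Sdc3 (0.979). Dcx, Aldh1l2, Kctd15 and Pak7 came next for Alk, with r from 0.974 to 0.962. Chl1, Ttyh1 and Lgi1 came next for Ptprz1, with r from 0.993 to 0.992. Ednra, Caskin2 and Smoc2 came next for Ptn, with r from 0.980 to 0.977. The libraries are shared by all these values and include the step between ganglia and tumors, so the correlations describe these samples only.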

How the data were processed

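Bulk RNA-seq was measured in 16 libraries, grouped by their labels; the column headers call wild-type Runx1t1 Hom. The authors aligned reads to mm10 with STAR, used SAMtools and RSEM, and deposited expected counts, not normalized, and TPM, scaled to the same sum in each library. Library kits are described as total RNA and the labels as polyA RNA. After rounding of the expected counts, edgeR 4.0.16 in R 4.3.3 (filterByExpr, TMM, quasi-likelihood test, all 5 groups in 1 fit) gave 9 comparisons, adjusted by Benjamini-Hochberg over 16665 genes with a threshold of 0.05. CPM values use TMM library sizes. Shares and levels between genes use TPM. Alternatives were upper-quartile normalization, DESeq2 1.42.0, other count filters, a replicate block, only the groups compared, limma-trend 3.58.1 on log2(TPM + 1) or log2(TPM + 0.1), each library left out and, chosen after seeing the data, a term for depth. Deviations from group means of same-numbered libraries correlated above 0.1 in all 4 pairs of transgene-free wild-type ganglia and tumors (0.128 to 0.343). No other pair of groups with 3 or more pairs met this. The labels give no shared animal or litter, and differently numbered libraries were not compared, so pairing was not established. The main fit and its p-values treat the libraries as unpaired. The replicate block, fitted over all 5 groups, was an alternative. In refits without 1 Th-MYCN het library, 1 library remains in that group and the other groups give the spread. Scripts were tested on simulated data.

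The members and gene lists were chosen with earlier results of these data known. Pathway genes named are Alkal1, Alkal2 and the syndecans, and at most 3 higher and 3 lower genes a list with the largest fold past the threshold and a mean of at least 1 TPM. Exceptions chosen after their values were seen are Ptprg, Ncan, Vcan, Runx1t1, Gm12970 and Gm26716. Dusp4, Etv1 and Maff are also exceptions, named as the members of their list that did not pass. Coordinates are from GENCODE vM21 (GRCm38). Depth and the number of libraries limit precision, and counting floors (3 counts) cover counting error only. RSEM shares out reads of near-identical genes.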

Additional observations from a re-analysis of the deposited data

Results flagged for a closer look

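In the groups of 4 libraries, 3 values lay far from the rest of their group, with a gap to the nearest library above 0.829 of the group's range (Dixon's 95% value). Chance gives this in about 1 in 20 groups, and 12 sets (6 genes in 2 groups) were examined. Ltk in tumor replicate 1 was at 2.52 CPM, against at most 0.250 CPM in the other tumors. Mdk in tumor replicate 1 was at 107 CPM, against at most 58.1 CPM. Mdk in replicate 3 of the transgene-free wild-type ganglia was at 12.9 CPM, against at most 7.03 CPM. Tumor replicate 1 also had the highest Alk of the 16 libraries, 259 CPM, and the highest neuron marker sum of the tumors, 8589 TPM; the part of either in the Ltk and Mdk values was not tested.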

How the results depend on the processing

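The 6 differences between tumors and transgene-free wild-type ganglia kept their direction and their side of the threshold under the 9 alternatives (8 for Ltk, which the filter of at least 10 counts in every library left out) and in the 16 refits without 1 library. Over the 6 genes in 9 comparisons, 461 values under these alternatives kept both, 6 lost and 2 gained the threshold and 8 changed sign, and without 1 library 814 kept both, 18 lost and 3 gained the threshold and 29 changed sign. The cause was not tested.

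For Th-MYCN against transgene-free wild-type ganglia, 156 genes passed, against 238 with upper-quartile normalization, 1285 with DESeq2, 0 with the replicate block, 0 with only the groups compared, 21 and 17 with limma (TPM + 1 and TPM + 0.1), 308 with a depth term and 0 to 1811 without 1 library. Alk was not called with the replicate block (adjusted p = 0.0736), with only the groups compared (0.378) or with limma (0.0599 and 0.0623). For the het ganglia 0 genes passed, against 14 with DESeq2 and 9 with only the groups compared. For the pooled transgene effect 7 passed, against 18 with upper-quartile normalization, 356 with DESeq2, 19 without a filter, 2 with at least 10 counts in every library, 0 with the replicate block, 0 with only the groups compared, 0 with limma (TPM + 1), 0 with a depth term and 0 to 720 without 1 library; Alk was called with DESeq2 (adjusted p = 0.0465). For het against wild-type Th-MYCN ganglia 2 passed, against 1 with upper-quartile normalization, 264 with DESeq2, 1 without a filter, 4 with at least 10 counts, 1 with the replicate block, 0 with only the groups compared, 23 and 5 with limma, 0 with a depth term and 0 to 320 without 1 library. DESeq2 called 5 genes between transgene-free genotypes and 31 for the interaction, which ranged from 0 to 1 without 1 library. The counts were 3549 to 6755 for tumors against Th-MYCN wild-type ganglia and 4313 to 8275 against Th-MYCN het ganglia without 1 library. The values of 3549, 1811, 720 and 320 came without replicate 3 of the Th-MYCN wild-type ganglia, 6755 without replicate 1 of them and 4313 without replicate 1 of the Th-MYCN het ganglia. The count was 0 for the wild-type comparison without transgene-free replicate 1, 3 or 4 or Th-MYCN replicate 1 or 4, for the pooled effect without any 1 transgene-free het library or Th-MYCN het replicate 2, and for het against wild-type Th-MYCN ganglia without either het library or wild-type replicate 1 or 4.

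The sign changes were in differences that passed no test. For the het ganglia with and without transgene, Alk was -0.15 and -0.22 with limma and -0.60 with a depth term, Ptn 0.06 with a depth term, and Ptprz1 0.05 with the replicate block and 0.03 with a depth term; the Ptprz1 interaction was 0.23 with the block and 0.25 with a depth term. Without 1 library the ranges that crossed 0 were, for Th-MYCN against transgene-free wild-type ganglia, -0.12 to 0.95 (Ltk), -0.79 to 0.04 (Ptn), -0.37 to 0.14 (Ptprz1) and -0.24 to 0.01 (Sdc3). For the het ganglia they were -1.41 to 0.82 (Alk), -0.50 to 0.88 (Mdk), -0.58 to 0.10 (Ptn), -0.51 to 0.07 (Ptprz1) and -0.17 to 0.07 (Sdc3). For Runx1t1 het against wild-type they were -0.20 to 0.66 (Ptn) and -0.12 to 0.50 (Ptprz1) with the transgene, and -0.41 to 0.24 (Mdk) and -0.05 to 0.17 (Ptn) without it. For the interaction they were -0.27 to 0.59 (Ptn), -0.42 to 0.20 (Ptprz1) and -0.06 to 0.21 (Sdc3).

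With the replicate block 9298 genes passed between tumors and transgene-free wild-type ganglia, against 9608 in the main fit without it, and the calls of the 6 genes did not change. In that comparison the deviations of same-numbered libraries correlated above 0.1 in all 4 pairs. Of all 25 same-numbered pairs 6, those 4 included, had deviations correlated above 0.1.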
